A study of Homo sapiens with 20 samples.

Results

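Integrins and laminins were described as 38 genes of the 24222 entries counted in 20 biliary tract cancer cell lines. The members were taken by gene symbol, which gave 18 integrin alpha subunits (ITGA), 8 integrin beta subunits (ITGB) and 12 laminin chains (LAMA, LAMB, LAMC). All 38 symbols were found in the table. Each line is an established culture represented by 1 RNA-seq library, so every spread is a spread between lines and a single line has no replicate. The lines comprised 7 from gallbladder cancer (TGBC2TKB, TGBC14TKB, SNU-308, G415, Mz-ChA-2, NOZ, OCUG-1) and 3 from the ampulla (SNU-478, SNU-869, TGBC18TKB). A further 4 came from intrahepatic bile duct cancer (HuCCT1, HuH28, SNU-1079, TKKK), 5 from extrahepatic bile duct cancer (Sk-ChA-1, EGI-1, SNU-1196, SNU-245, TFK-1), and OZ carried both duct labels. By origin, 7 lines were metastatic (G415, NOZ, OCUG-1, HuCCT1, Sk-ChA-1 and OZ from ascites, Mz-ChA-2 from liver) and 13 were from primary tumours. All were untreated and grown in the same serum-containing medium.

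Integrins are receptors made of an alpha and a beta subunit, which bind matrix outside the cell and the actin or keratin skeleton inside it. ITGB1 pairs with many alpha subunits, ITGAV pairs with several beta subunits, and ITGB4 pairs with ITGA6 alone, as the receptor of hemidesmosomes. Laminins are trimers of an alpha, a beta and a gamma chain and form the scaffold of basement membranes. LAMA3 and LAMB3 are chains of the epithelial laminin that ITGA3 and ITGA6 receptors bind, and bile duct epithelium rests on laminins that contain LAMA5.

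Library totals ran from 10.47 to 15.41 M counts (M, mega; median 12.49 M), and the members took between 0.422% (SNU-245) and 1.609% (HuH28) of them, with a median of 0.723%. Levels are counts per M counts after TMM scaling of the library totals (CPM). A count of 0 allows up to 3 counts, or 0.195 to 0.287 CPM before that scaling, and this covers counting error only. Among 8 biliary epithelial markers, KRT8 and KRT18 reached 10 CPM in 20 of 20 lines. HuH28 and Mz-ChA-2 stood apart. HuH28 had 1.03 CPM of KRT19 and 0.257 CPM of EPCAM, against medians of 1437 and 409 CPM, and a summed level of 335 CPM over the 8 markers, against 13572 CPM in SNU-245. HuH28 also had the highest sum over 6 fibroblast markers, 1910 CPM against a median of 1.97 CPM. Mz-ChA-2 had 0.233 CPM of the keratin KRT7, against a median of 726 CPM. Several results that rest on either line are given with and without it below. Slopes of genes outside the members, calls by DESeq2 and medians over members are given with both lines only. The sum over 8 leukocyte markers reached 439 CPM in G415, where CD68 alone had 437 CPM. The leukocyte antigen PTPRC was at a median of 0 CPM and at most 1.32 CPM (TKKK).

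The 5′ flanks of 4 members are shown because those genes carry the results that follow. LAMA3 and LAMB3 encode partner chains whose transcripts were correlated, ITGA5 had the smallest p of the members along the epithelial to mesenchymal range, and ITGB6 had the steepest positive slope there without passing the test. Each sequence runs from 250 bases before to 50 after 1 start listed for the gene in RefSeq (GRCh38.p14), 5′ to 3′ on the strand of the gene. Whether that start belongs to the transcript counted was not checked, which matters for LAMA3 with its long and short transcripts. Capitals mark TGANTCA, the AP-1 motif, and CACCTG or its complement CAGGTG, the motif of the ZEB and SNAI repressors, both searched on both strands.
LAMA3, chr18:23872770-23873069, plus strand: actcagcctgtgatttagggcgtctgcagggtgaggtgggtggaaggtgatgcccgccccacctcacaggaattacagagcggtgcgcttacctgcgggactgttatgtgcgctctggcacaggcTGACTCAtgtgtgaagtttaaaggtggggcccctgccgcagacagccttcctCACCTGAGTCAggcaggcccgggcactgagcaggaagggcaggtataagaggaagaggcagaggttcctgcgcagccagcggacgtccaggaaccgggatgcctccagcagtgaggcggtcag
LAMB3, chr1:209652376-209652675, minus strand: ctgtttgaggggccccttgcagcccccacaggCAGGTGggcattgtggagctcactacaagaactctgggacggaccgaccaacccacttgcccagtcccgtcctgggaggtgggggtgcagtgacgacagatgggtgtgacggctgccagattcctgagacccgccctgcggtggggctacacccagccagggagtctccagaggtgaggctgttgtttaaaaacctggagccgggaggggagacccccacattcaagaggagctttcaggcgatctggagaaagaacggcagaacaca
ITGA5, chr12:54419217-54419516, minus strand: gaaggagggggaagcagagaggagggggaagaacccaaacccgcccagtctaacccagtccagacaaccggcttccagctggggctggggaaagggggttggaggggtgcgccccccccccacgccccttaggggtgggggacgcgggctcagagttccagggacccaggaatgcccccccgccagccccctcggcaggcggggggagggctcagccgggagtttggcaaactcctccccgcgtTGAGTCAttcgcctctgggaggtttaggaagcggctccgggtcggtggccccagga
ITGB6, chr2:160200223-160200522, minus strand: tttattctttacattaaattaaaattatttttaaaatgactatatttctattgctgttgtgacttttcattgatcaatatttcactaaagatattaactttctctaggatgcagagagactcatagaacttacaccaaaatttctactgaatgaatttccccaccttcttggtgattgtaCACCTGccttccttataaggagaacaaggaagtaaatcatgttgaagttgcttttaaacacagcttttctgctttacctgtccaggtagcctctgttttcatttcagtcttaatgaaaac
LAMA3 held 2 AP-1 matches, with first bases at -125 and -69 from the start, and 1 CACCTG match at -73 whose last bases overlap the second AP-1 match. LAMB3 held 1 CAGGTG match at -218 and no AP-1 match. ITGA5 held 1 AP-1 match at -6 and no CACCTG match, and ITGB6 held 1 CACCTG match at -70 and no AP-1 match. Among 27305 RefSeq windows of the same length, 7.76% held TGANTCA and 20.6% held CACCTG. These matches describe the letters only.

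Some integrin and laminin transcripts were found in every line and others at high levels in 1 line or a few. These are bulk libraries, in which fewer cells of a kind and less RNA per cell cannot be told apart. At least 10 CPM was reached in some line by 33 of the 38 members, and 9 members were at 10 CPM or more in every line (ITGA2, ITGA3, ITGAV, ITGB1, ITGB5, LAMA5, LAMB1, LAMB2, LAMC1). The 5 that stayed under 10 CPM were ITGA8, ITGA9, ITGAD, ITGAM and LAMB4, and the highest value among them was 3.94 CPM (ITGA9 in HuH28). Compared per kb of transcript, ITGB1 had the highest median level of the members, 359 CPM per kb. It was followed by ITGA3 with a median level of 160, ITGB4 with 122, LAMB1 with 103 and LAMA5 with 88.8 CPM per kb. Lengths are those of the RefSeq transcript named in the table. LAMA3 has a long and a short transcript and was divided by the length of the long one, 10661 nt, so its level per kb is a low estimate.

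**Figure D1:**
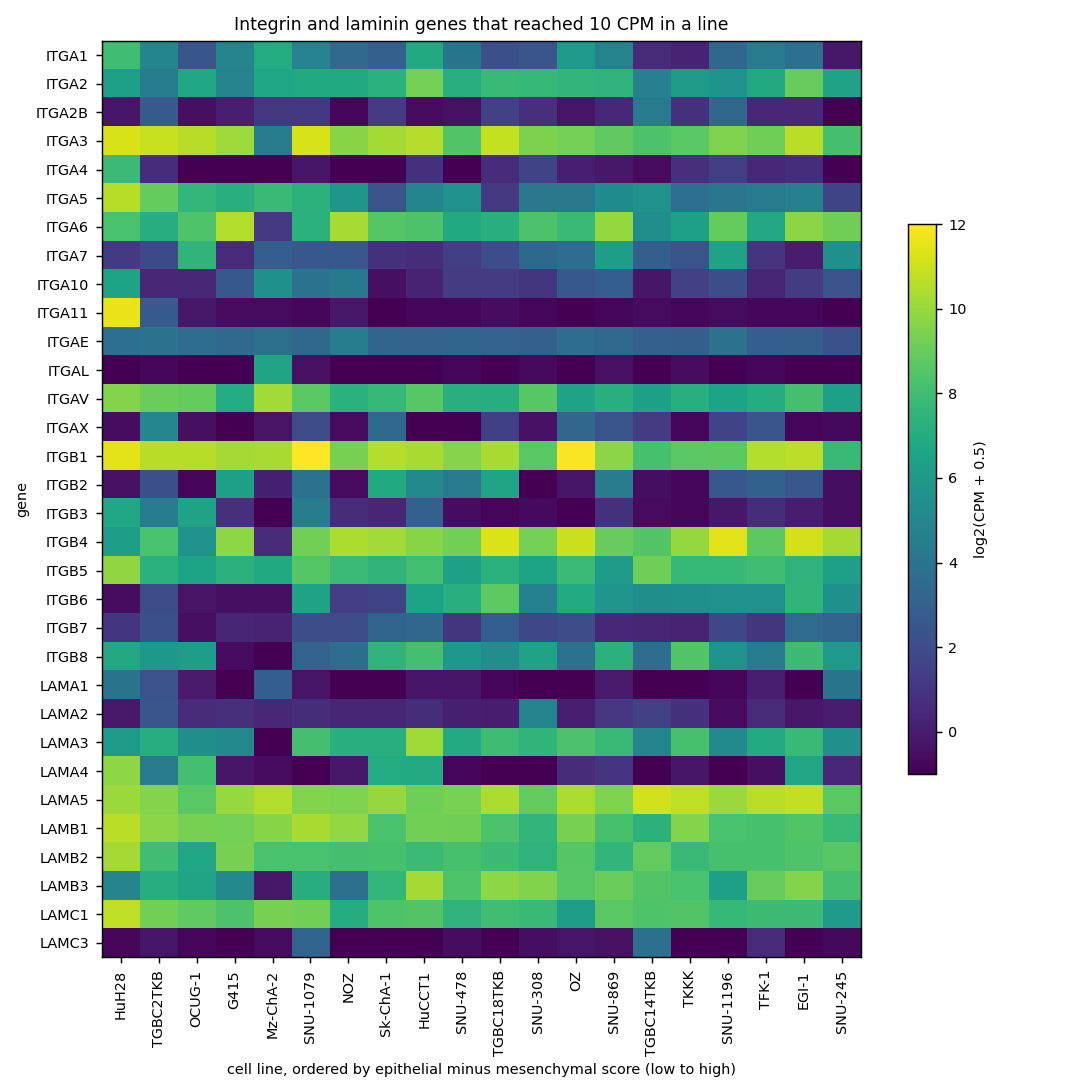
Levels of members that reached 10 CPM in a line, as log2(CPM + 0.5) by colour, with genes down the page and the 20 lines ordered from the lowest (HuH28) to the highest (SNU-245) epithelial minus mesenchymal score. HuH28 shows ITGA11 at 3162 CPM, and Mz-ChA-2 shows ITGA3, ITGA6, ITGB4, LAMA3 and LAMB3 low.

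The beta subunits set which receptors a cell can form. ITGB1 lay between 216 CPM (SNU-245) and 4111 CPM (SNU-1079), with a median of 1305 CPM and 3848 CPM in OZ. Per kb it was the most abundant beta subunit in 14 of 20 lines, with 18.3% (SNU-1196) to 93.0% (Mz-ChA-2) of the summed beta subunit level. ITGB4 was the most abundant in 5 lines and made up 71.3% in SNU-1196. ITGB4 itself ran from 1.01 CPM in Mz-ChA-2 and 48.3 CPM in OCUG-1 to 2529 CPM in TGBC18TKB and 2699 CPM in SNU-1196, around a median of 723 CPM. ITGB5, which pairs with ITGAV to bind vitronectin, ran from 71.8 CPM (SNU-869) to 905 CPM (HuH28) and led per kb in TGBC14TKB, with 45.5% of the sum.

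The other beta subunits were high in some lines only. ITGB6, an epithelial partner of ITGAV whose receptor activates latent TGF-beta, was under 4 CPM in 7 lines (HuH28, G415, Mz-ChA-2, OCUG-1, NOZ, Sk-ChA-1, TGBC2TKB). In the other 13 lines it lay between 26.0 CPM (SNU-308) and 443 CPM (TGBC18TKB). ITGB8, another ITGAV partner, was at 0 CPM in Mz-ChA-2 and 0.145 CPM in G415, and highest in TKKK with 364 CPM. ITGB3, the ITGAV partner best known from platelets and osteoclasts, had a median of 0.649 CPM and 4 high lines. HuH28 had 111 CPM, OCUG-1 had 89.8, SNU-1079 had 22.6 and TGBC2TKB had 21.5 CPM of ITGB3. The leukocyte subunits ITGB2 and ITGB7 reached 119 CPM (Sk-ChA-1) and 11.3 CPM (EGI-1). ITGB2 shares its locus with the antisense gene ITGB2-AS1, which had 45.6 CPM in Sk-ChA-1, 31.6 in TGBC18TKB and 29.6 in G415, the 3 lines highest in ITGB2. How the counting treated strand is not given in the sources used here. Reads of the pair cannot be told apart.

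Among laminin-binding alpha subunits, ITGA3 lay between 292 CPM (SNU-245) and 2372 CPM (SNU-1079) in 19 lines and at 19.1 CPM in Mz-ChA-2. ITGA6 lay between 42.7 CPM (TGBC14TKB) and 1466 CPM (G415) in 19 lines and at 1.71 CPM in Mz-ChA-2. ITGA7, best known from muscle, had a median of 4.95 CPM and was highest in OCUG-1 (179 CPM) and SNU-1196 (88.9 CPM). Among the collagen-binding subunits, ITGA2 was at 22.7 CPM (TGBC2TKB) to 635 CPM (HuCCT1). ITGA1 ran from 0.392 CPM (SNU-245) to 261 CPM (HuH28), and its gene also holds PELO, which was at 7.7 to 93.6 CPM. ITGA10, best known from cartilage, had a median of 2.13 CPM, 92.5 CPM in HuH28 and 46.0 CPM in Mz-ChA-2. ITGA11, the collagen receptor of fibroblasts, had 3162 CPM in HuH28. The next highest line for ITGA11 was TGBC2TKB with 6.08 CPM, and the median was 0.0849 CPM.

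The receptors of fibronectin and related ligands varied as widely. ITGA5, whose receptor with ITGB1 binds fibronectin, ran from 1.71 CPM (TGBC18TKB) to 1583 CPM (HuH28) around a median of 35.0 CPM. ITGAV lay between 83.4 CPM (SNU-245) and 1174 CPM (Mz-ChA-2), with a median of 155 CPM. ITGA4, which binds VCAM1 and fibronectin, had 235 CPM in HuH28 and at most 2.53 CPM (SNU-308) elsewhere. The platelet subunit ITGA2B was highest in TGBC14TKB with 20.3 CPM, while a sum over 3 measured platelet markers was at most 7.44 CPM (SNU-478). Among leukocyte alpha subunits, ITGAL had 94.5 CPM in Mz-ChA-2 and at most 0.246 CPM elsewhere, and its partner ITGB2 had 0.622 CPM in Mz-ChA-2. ITGAX was at 32.4 CPM in TGBC2TKB, 10.7 CPM in Sk-ChA-1 and 9.3 CPM in OZ around a median of 0.293 CPM. ITGAE, the receptor of E-cadherin, lay between 4.41 and 22.1 CPM in all lines. Its gene overlaps P2RX5, at 0 to 33.9 CPM, and HASPIN, at 1.49 to 33.7 CPM, so reads may be shared.

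For laminin alpha chains, LAMA5 was present at 412 CPM (OCUG-1) to 2255 CPM (TGBC14TKB) and was the most abundant alpha chain per kb in 17 of 20 lines. It made up 28.4% (HuCCT1) to 99.3% (Mz-ChA-2) of the summed alpha chain level, with a median of 81.2%. LAMA3 led in HuCCT1, with 61.0% of the sum and 1145 CPM. LAMA4, a chain of vessels and mesenchyme, led in HuH28 and OCUG-1, where it had 901 and 279 CPM. LAMA4 was also at 126 CPM in Sk-ChA-1, 122 in HuCCT1, 98.3 in EGI-1 and 19.7 in TGBC2TKB, and at most 1.42 CPM in the other lines. LAMA1, an embryonic chain, reached 16.2 CPM in HuH28 and 16.1 CPM in SNU-245. LAMA2, the muscle and nerve chain, reached 27.5 CPM in SNU-308.

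LAMB1 ran from 166 CPM (TGBC14TKB) to 1636 CPM (HuH28) and LAMB2 from 103 CPM (OCUG-1) to 1241 CPM (HuH28). Per kb, LAMB1 was the leading beta chain in 11 lines, LAMB3 in 6 and LAMB2 in 3. LAMB3 was at 0.389 CPM in Mz-ChA-2 and between 13.2 CPM (NOZ) and 1232 CPM (HuCCT1) elsewhere. Of the gamma chains, LAMC1 ran from 72.5 CPM (SNU-245) to 1709 CPM (HuH28). LAMC3 reached 13.6 CPM in TGBC14TKB and 8.63 CPM in SNU-1079. HuCCT1 was thus the highest line for LAMA3 and LAMB3, and Mz-ChA-2 the lowest.

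**Figure D2:**
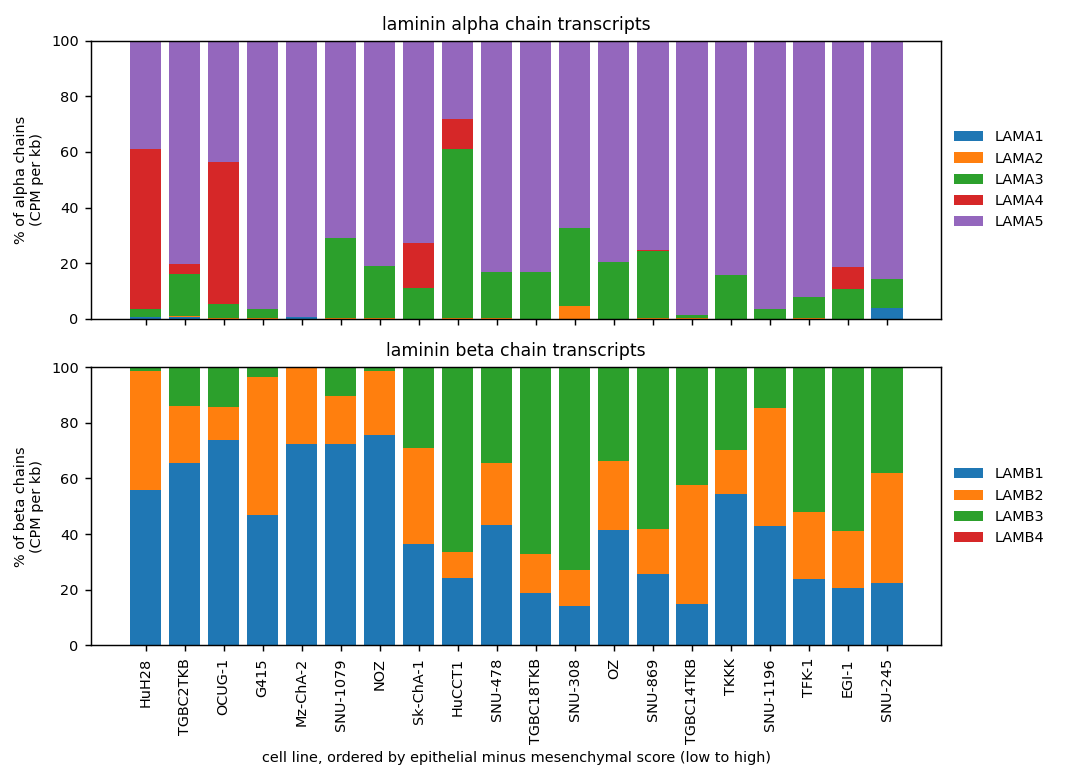
Share of each chain in the summed laminin alpha and beta transcript level (percent, CPM per kb) in each of the 20 lines, ordered by epithelial minus mesenchymal score. LAMA5 is the main alpha chain in 17 lines, and LAMA4 is seen in HuH28 (57.5%) and OCUG-1.

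Single lines that departed from the rest were marked by a rule with no test. A line was extreme for a gene if its log2(CPM + 0.5) was 2.5 or more away from the median line and that distance also exceeded 3 scaled MAD (median absolute deviation). Low calls were made only for genes whose median line reached 5 CPM. High calls were met by 12 members, beside 15.3% of the 14741 genes that reached 10 CPM in a line, and low calls by 5 members, beside 8.45% of those genes. HuH28 held 7 of the high members (ITGA4, ITGA5, ITGA10, ITGA11, ITGB3, LAMA1, LAMA4) and TGBC2TKB held 5 (ITGA11, ITGAX, ITGB3, LAMA1, LAMA4). Over all those genes, 4.2% were high in HuH28 and 3.38% in TGBC2TKB. HuH28 was the highest line for 12 of 33 members, and for 8.76% of all those genes. Mz-ChA-2 was the lowest line for 8 members, and the share of all genes for which it was lowest was not computed. All 5 low members were low in Mz-ChA-2, where LAMA3 had 0 counts, which allows up to 0.244 CPM before scaling. Over all those genes 1.93% were low in Mz-ChA-2, the highest share of the 20 lines. OCUG-1 was low for ITGB4 as well. A count of 10 has an exact Poisson 95% interval of 4.8 to 18.39 counts, and a count of 1000 one of 938.97 to 1063.95, which covers counting error only. Variation between cultures or libraries of a line was not measured.

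Along the range from mesenchymal to epithelial lines, 7 members fell and 1 rose. The score of a line is the mean log2 level of 24 epithelial genes minus that of 23 mesenchymal genes, none of them a member, and it ran from -11.910 (HuH28) to 5.271 (SNU-245). With edgeR's quasi-likelihood test over 16622 genes, 8 of 32 members tested passed an adjusted p of 0.05, beside 7.5% of all genes. The 7 lower members stand beside 4.22% of all genes and the 1 higher beside 3.28%. The median slope of the 32 was -0.06 on the log2 scale per unit of score, and 0 over all genes tested. The score and the members come from the same libraries.

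ITGA5 fell most clearly, by 0.42 ± 0.05 (SE) log2 units per unit of score (adjusted p = 6.22e-05). Its 6 highest values, 141 to 1583 CPM, were in the 6 lines of lowest score (HuH28, TGBC2TKB, OCUG-1, G415, Mz-ChA-2, SNU-1079), and no other line exceeded 57.7 CPM. ITGB3 fell by 0.63 ± 0.11 (adjusted p = 0.00179), with 1 of those 6 lines, Mz-ChA-2, at 0 CPM. ITGAV fell by 0.18 ± 0.04 (adjusted p = 0.0122). The laminin chains LAMC1 and LAMB1, shared by the LAMA4 and LAMA5 trimers, fell by 0.16 ± 0.03 and 0.15 ± 0.03 (adjusted p = 0.0023 and 0.0052). ITGA10 fell by 0.30 ± 0.07 (adjusted p = 0.0122). Without HuH28 the calls of LAMC1, LAMB1 and ITGA10 were lost, with adjusted p = 0.111, 0.0508 and 0.203 (edgeR), while their slopes stayed at -0.17 to -0.14, -0.16 to -0.14 and -0.34 to -0.27 over all single omissions. ITGA4 had a slope of -0.42 ± 0.09 (adjusted p = 0.00477) that rested on HuH28, since without that line the slope was 0.22 (adjusted p = 0.496).

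LAMB3 rose with the score, by 0.30 ± 0.09 log2 units per unit (adjusted p = 0.0463). That call was lost when any of 16 lines was left out and held without HuCCT1, Mz-ChA-2, SNU-1196 or SNU-245, while the slope was 0.28 to 0.33 throughout. LAMB3 was at 0.389 to 137 CPM in the 7 lines of lowest score and at 80.0 to 1232 CPM in the other 13. ITGB6 had the steepest positive slope, 0.49 ± 0.16, and missed the threshold (adjusted p = 0.0569). LAMA3 had a slope of 0.12 ± 0.11 and did not pass (adjusted p = 0.585, edgeR). ITGB4 had 0.23 ± 0.09 (adjusted p = 0.136) and LAMA5 0.04 ± 0.04 (adjusted p = 0.612).

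HuH28 lay far from the other lines on the score. Without it 3 members passed (ITGA5, ITGAV, ITGB3), and without HuH28 and Mz-ChA-2, a choice made after seeing the data, 2 did (ITGA5, ITGB3). With the supplying repository as a covariate 5 passed (ITGA5, ITGAV, ITGB6, LAMB1, LAMC1), 4 of them among the 8. In that covariate the lines from DSMZ and from Zurich, 2 each, were joined as 1 level. With site as a covariate, over 19 lines, 3 passed (ITGA5, ITGA11, ITGB6), of which ITGA5 was among the 8. ITGA11 was not among the 32 members tested without a covariate. Its slope rests on HuH28 (3162 CPM), the line of lowest score, since the next highest line, TGBC2TKB, had 6.08 CPM. That call therefore says nothing about the range among the other lines, and no value without HuH28 is given for it. ITGA5 therefore passed in each of these fits, with slopes of -0.45 with repository and -0.39 with site. Shares of all genes were not set beside the counts of these refits. Of 6 fibroblast markers 1 was among the genes tested outside the score, PDGFRA, which fell by 0.98 ± 0.16 (adjusted p = 0.00101), and the part of such transcripts in these slopes was not tested.

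**Figure D3:**
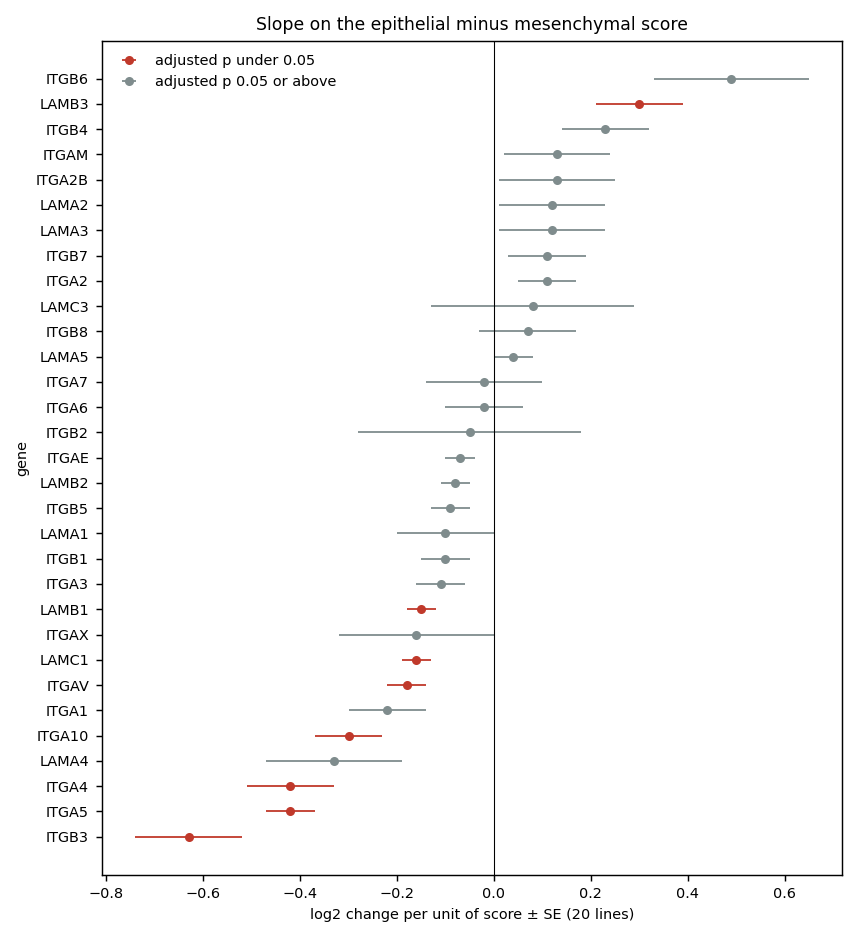
Slopes of members tested, as log2 change per unit of epithelial minus mesenchymal score with its SE over 20 lines. Red points passed an adjusted p of 0.05, 7 to the left of 0 (lower in more epithelial lines) and LAMB3 to the right.

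Other genes of integrin adhesion were counted from lists. Of 33 genes of the integrin adhesion machinery tested, 6 fell with the score and 0 rose, with a median slope of -0.05. Over all genes tested 4.22% fell and 3.28% rose. TLN1 (talin, which activates integrins) fell by 0.19 ± 0.02 and FLNA (filamin A) by 0.28 ± 0.03 log2 units per unit (adjusted p = 6.22e-05 and 7.33e-05). Of 25 integrin ligands other than laminins, 8 fell and 1 rose, with a median slope of -0.26. Those that fell included the matrix protein CCN2 with -0.43 ± 0.07, ICAM1, the ligand of ITGAL, with -0.36 ± 0.06, and fibronectin (FN1) with -0.71 ± 0.15 (adjusted p = 0.000568, 0.000605 and 0.0048). Of 20 basement membrane genes, NID2 fell by 0.42 ± 0.10 and NPNT, a ligand of ITGA8, rose by 0.65 ± 0.18 (adjusted p = 0.0156 and 0.0291), 1 of 20 each way, close to the shares over all genes. Of 10 hemidesmosome and laminin receptor genes, DST fell by 0.11 ± 0.03 and COL17A1 rose by 0.56 ± 0.15 (adjusted p = 0.0211 and 0.0286).

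Partner genes were compared over the 20 lines for 61 pairs of subunits, chains, receptors and ligands, of 71 listed, as correlations of log2 CPM with two-sided permutation p adjusted over the 61 pairs. By Pearson's r 14 pairs passed, 12 positive and 2 negative. By Spearman's rho 10 passed, 8 of them the same pairs. By rank alone ITGA3 with ITGB1 passed, and so did ITGAE with CDH1. ITGAE and CDH1 had rho = -0.72 (adjusted permutation p = 0.0104), r = -0.53 and a partial r of -0.15 given the score. Pairs passing by r were 3 of 19 integrin heterodimers, 3 of 14 laminin chain pairs, 3 of 14 integrin and laminin pairs, and 5 of 14 integrin pairs with other ligands. The median r was 0.23, 0.32, 0.42 and 0.17 in those classes. Lines of 1 repository (6 from KCLB, 6 from RIKEN) were also taken alone, as the labels give no sequencing batch. All KCLB lines were from primary tumours, so repository and origin are partly confounded.

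The chains LAMA3 and LAMB3 of the epithelial laminin were correlated, and the call was lost without Mz-ChA-2. LAMA3 and LAMB3 had r = 0.81 (permutation p = 0.00056, adjusted p = 0.00526) and rho = 0.61 (permutation p = 0.00488, adjusted p = 0.0331). That pair's r was 0.51 without Mz-ChA-2 (adjusted p = 0.114 by permutation), 0.41 without the 2 farthest lines, 0.46 in KCLB and 0.70 in RIKEN lines. With the score held constant the partial r was 0.85 (adjusted permutation p = 0.00813).

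Correlations involving the receptors of that laminin were lost without Mz-ChA-2. ITGB4 and LAMA3 had r = 0.78 (permutation p adjusted to 0.0318), ITGB4 and LAMB3 0.71 (0.0348), ITGA3 and LAMA3 0.75 (0.0389), and ITGA6 and ITGB4 0.70 (0.0437). Without Mz-ChA-2 these were 0.30, 0.28, 0.24 and 0.21, with adjusted permutation p of 0.462, 0.474, 0.516 and 0.588. The pair of ITGB4 and LAMA3 was also lost without OCUG-1, that of ITGB4 and LAMB3 without HuH28 (r = 0.69, adjusted permutation p = 0.0696), and that of ITGA3 and LAMA3 without HuCCT1, SNU-245 or TGBC14TKB. The pair of ITGA6 and ITGB4 was lost in 10 of 20 single omissions. None of the 4 passed by rank, with rho of 0.41, 0.29, 0.34 and 0.45. In the KCLB lines r of ITGB4 with LAMA3 was -0.91 and with LAMB3 -0.70, while r was 0.49 for ITGA3 and LAMA3 and 0.27 for ITGA6 and ITGB4. In the RIKEN lines the 4 values were 0.39, 0.35, 0.41 and 0.26.

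ITGB1 matched some of its alpha partners. ITGA1 and ITGB1 had r = 0.73 (permutation p = 0.00029, adjusted p = 0.00354) and rho = 0.62, with r of 0.62 without SNU-245 and HuH28, 0.77 in KCLB and 0.83 in RIKEN lines. ITGA3 and ITGB1 missed with r = 0.39 (adjusted permutation p = 0.18) but passed by rank with rho = 0.66 (adjusted permutation p = 0.0233). Without Mz-ChA-2 the r of ITGA3 and ITGB1 was 0.72 (adjusted permutation p = 0.00498), and it was 0.79 in KCLB and 0.98 in RIKEN lines. ITGA5 and ITGB1 had r = 0.43 (adjusted permutation p = 0.15), and ITGA6 and ITGB1 had r = -0.04.

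Fibronectin transcripts correlated with those of ITGAV, ITGA5 and ITGB3, and not detectably with ITGA4 (r = 0.10, adjusted permutation p = 0.801, and rho = -0.16). ITGAV and FN1 had r = 0.84 (permutation p = 2e-05, adjusted p = 0.00061) and rho = 0.81. FN1 was the gene of highest r with ITGAV among 16336 ranked. Their r was 0.79 without HuH28 and Mz-ChA-2, 0.83 in KCLB and 0.78 in RIKEN lines, and the partial r given the score was 0.67 (adjusted permutation p = 0.0111). ITGA5 and FN1 had r = 0.80 (permutation p = 2e-05, adjusted p = 0.00061) and rho = 0.83, with r of 0.72 without the 2 farthest lines, 0.70 in KCLB and 0.78 in RIKEN lines. Given the score, their partial r was 0.40 and did not pass (adjusted permutation p = 0.273). ITGB3 and FN1 had r = 0.69 (adjusted permutation p = 0.00526), with 0.47 in KCLB and 0.96 in RIKEN lines, and a partial r of 0.24 given the score (adjusted permutation p = 0.657). ITGAV and ITGB3 had r = 0.55 (adjusted permutation p = 0.0468), which was lost in 17 of 20 single omissions and was 0.81 without Mz-ChA-2, and their partial r given the score was 0.10. FN1 itself had 13720 CPM in HuH28, 13692 in OCUG-1, 6761 in Mz-ChA-2, 3050 in TGBC2TKB and 2163 in HuCCT1, and 0.61 to 652 CPM in the other lines.

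ITGB6 ran against FN1 and TGFB1. ITGB6 and FN1 had r = -0.70 (adjusted permutation p = 0.00526) and rho = -0.53 (adjusted permutation p = 0.0923), with 0.38 in KCLB and -0.57 in RIKEN lines. Without HuH28 and Mz-ChA-2 their r was -0.59 (adjusted permutation p = 0.0793). ITGB6 and TGFB1, whose latent form the ITGAV-ITGB6 receptor activates, had r = -0.62 (adjusted permutation p = 0.0266) and rho = -0.65, with -0.60 in KCLB and -0.61 in RIKEN lines. Without HuH28 the r of ITGB6 and TGFB1 was -0.57 (adjusted permutation p = 0.0526). Given the score neither passed, with partial r of -0.14 and -0.18. ITGB6 had 7 low and 13 high lines, and the gap between them was 0.278 of its log2 range.

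**Figure D4:**
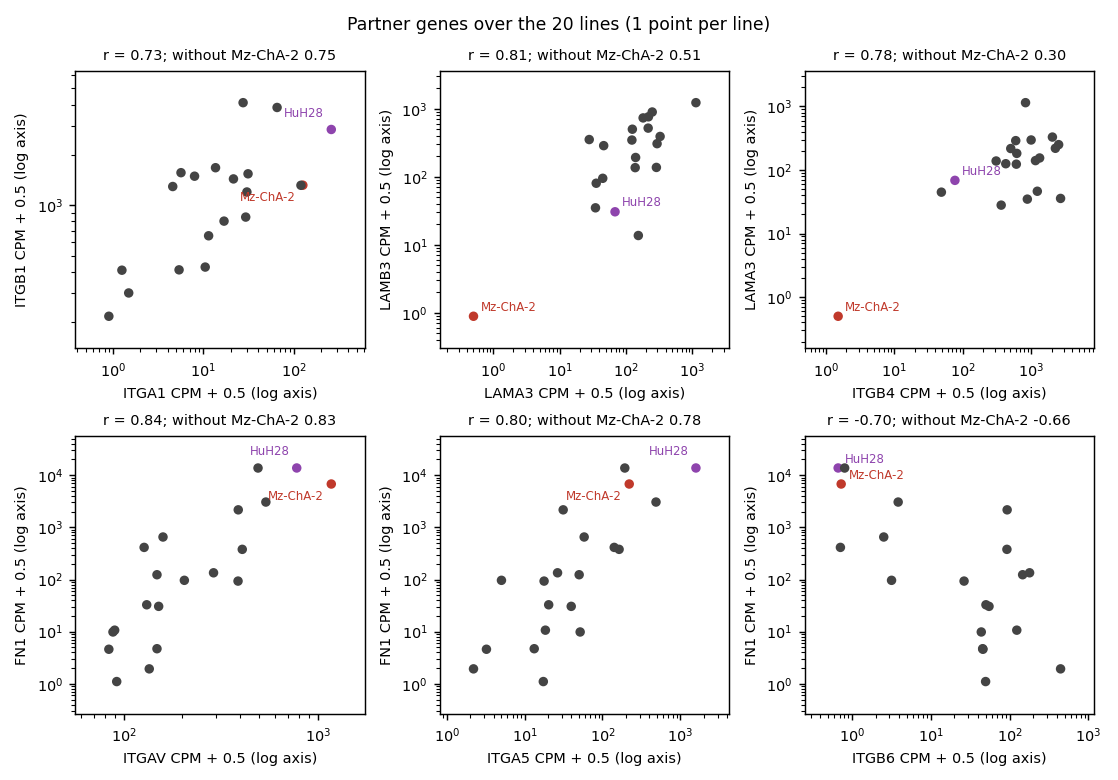
CPM of partner genes on log axes, 1 point per line (20 lines), with Mz-ChA-2 in red and HuH28 in purple. The upper row shows ITGA1 with ITGB1, LAMA3 with LAMB3, and ITGB4 with LAMA3, whose r of 0.78 becomes 0.30 without Mz-ChA-2, and the lower row shows FN1 against ITGAV, ITGA5 and ITGB6.

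The genes of highest r with 3 members were named over the 20 lines, as a description. For ITGB6 they were NECTIN4 (0.91), SH2D3A (0.91), ICA1 (0.90), ARAP2 (0.90) and PRSS8 (0.90). For ITGA5 they were APMAP (0.86), ARSB (0.86), STARD4-AS1 (0.85), PDE1C (0.83) and HYCC1 (0.82). For ITGB4 they were TRMT61A (0.89), INF2 (0.88), GPRC5A (0.87), CEP170B (0.85) and TKFC (0.84), each with its lowest value in Mz-ChA-2.

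By anatomical site no member passed. Sites were compared over 19 lines, without OZ, with edgeR's quasi-likelihood test on 16615 genes, of which 32 were members. Across the 4 sites jointly 0 members passed at an adjusted p of 0.05, beside 0.00602% of all genes. Members with an unadjusted p under 0.05 numbered 8, beside 10.7% of all genes. By limma-voom 0 passed, and by DESeq2 3 did (ITGA5, LAMA2, LAMB1). Shares of all genes, here and in the site and origin results below, are those of edgeR. The DESeq2 counts stand without such a share and are not read as results particular to the members. The smallest p belonged to ITGA4, ITGA5 and LAMB1 (adjusted p = 0.258, 0.309 and 0.309 by edgeR).

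Intrahepatic lines had the highest median of LAMB1 among the sites, and a fitted difference above 0 for ITGA5, but neither passed the test. LAMB1 was at 1636, 1299, 758 and 601 CPM in HuH28, SNU-1079, TKKK and HuCCT1. In gallbladder lines LAMB1 was at 166 to 958 CPM with a median of 651, in ampullary lines at 303, 336 and 584 CPM, and in extrahepatic lines at 227, 302, 308, 318 and 357 CPM. All 4 intrahepatic lines lay above all 5 extrahepatic ones, as they did for 0.902% of the 14741 genes that reached 10 CPM and for 2 of 33 members, LAMB1 and LAMC1. The log2 difference of intrahepatic lines from the mean of the other sites was 1.39 ± 0.37 for LAMB1 (adjusted p = 0.164, edgeR). ITGA5 was at 1583, 163, 30.8 and 12.8 CPM in HuH28, SNU-1079, HuCCT1 and TKKK, and in extrahepatic lines at 2.74, 4.55, 16.9, 19.9 and 26.0 CPM, and these ranges overlap. The median of ITGA5 was 96.9 CPM in intrahepatic lines, 141 CPM in gallbladder and 39.2 CPM in ampullary lines. Its intrahepatic difference was 3.47 ± 0.92 (adjusted p = 0.164), and without HuH28 it was 0.74. ITGA4 had 6.64 ± 1.63 (adjusted p = 0.16) and 0.67 without HuH28. Intrahepatic calls were 0 of 32 members, beside 0.0% of all genes, with 11 at an unadjusted p under 0.05 beside 9.47%. DESeq2 called 2 (ITGA5, LAMB1) and limma-voom 0. The members' median log2 difference was 1.09, against 0.04 over all genes. Fibroblast markers had a median of 6 in the same contrast with 0 of 6 called, and their part in it was not tested.

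For intrahepatic against extrahepatic lines, the difference was 1.86 ± 0.48 for LAMB1, 5.02 ± 1.34 for ITGA5 and 1.79 ± 0.55 for LAMC1 (adjusted p = 0.411 for each by edgeR). LAMC1 was at 1709, 593, 372 and 357 CPM in intrahepatic and 345, 244, 244, 210 and 72.5 CPM in extrahepatic lines, so the groups did not overlap, with 357 against 345 CPM at the boundary. Without HuH28 the 3 differences were 1.55, 2.29 and 0.98. Calls were 0 of 32, beside 0.0% of all genes, with 9 at an unadjusted p under 0.05 beside 9.4%. DESeq2 called 3 (ITGA5, ITGB3, LAMB1) and limma-voom 0. Extrahepatic lines against the other sites gave -3.23 ± 1.14 for ITGA5, -1.09 ± 0.40 for LAMB1 and -0.97 ± 0.46 for LAMC1 (adjusted p = 0.555, 0.568 and 0.705 by edgeR). There 0 of 32 passed beside 0.0% of all genes, 3 had an unadjusted p under 0.05 beside 7.01%, DESeq2 called 1 (ITGA5) and limma-voom 0.

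Gallbladder lines had the lowest median of ITGB6 among the sites, 2.04 CPM, without passing the test. ITGB6 was at 0.217, 0.233, 0.311, 2.04, 3.37, 26.0 and 43.3 CPM in G415, Mz-ChA-2, OCUG-1, NOZ, TGBC2TKB, SNU-308 and TGBC14TKB. Ampullary lines had 54.4, 146 and 443 CPM, intrahepatic lines 0.171, 45.1, 92.1 and 92.7 CPM, and extrahepatic lines 2.69, 45.5, 49.2, 49.7 and 179 CPM. All 7 gallbladder lines lay below 45.1 CPM, as did HuH28 and Sk-ChA-1. The log2 difference of gallbladder lines was -3.13 ± 1.21 for ITGB6 (adjusted p = 0.31), 2.76 ± 0.72 for LAMA2 (adjusted p = 0.215) and 2.86 ± 1.26 for ITGB3 (adjusted p = 0.373, all edgeR). LAMA2 rested on SNU-308, without which it was 1.21, and ITGB3 on OCUG-1, without which it was 0.88. Calls were 0 of 32, beside 0.0% of all genes, with 4 at an unadjusted p under 0.05 beside 12.3%. DESeq2 called 3 (ITGB2, ITGB6, LAMA2) and limma-voom 0.

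Ampullary lines gave a difference of -1.29 ± 0.57 for ITGB5 and 2.63 ± 1.18 for ITGB6 (adjusted p = 0.923 for each by edgeR), and the ITGB6 difference was 1.51 without TGBC18TKB. ITGB5 was at 71.8, 86.9 and 156 CPM in ampullary lines, against 71.8 to 905 CPM over all lines. LAMA4 had -7.29 ± 3.88 (adjusted p = 0.923), which was 2.24 with repository as a covariate, with 0, 0.0845 and 1.42 CPM in ampullary lines. Calls were 0 of 32, beside 0.00602% of all genes, with 2 at an unadjusted p under 0.05 beside 5.25%, and 0 by DESeq2 and by limma-voom. The site contrasts share lines as references, so their values are not independent.

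**Figure D5:**
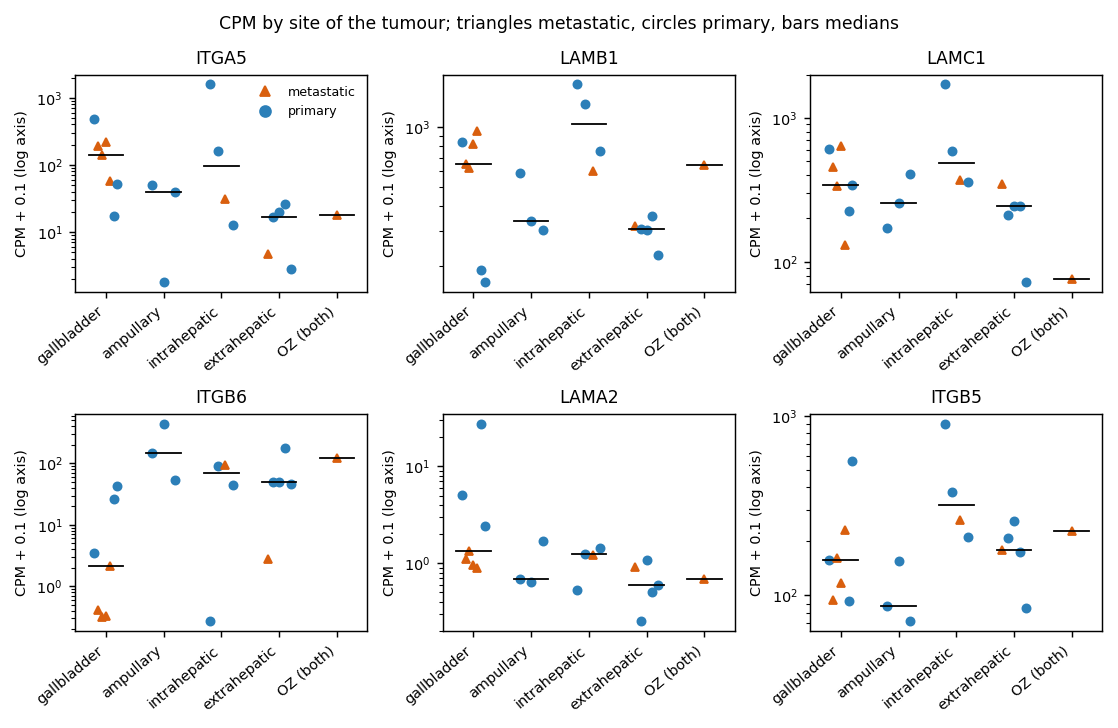
CPM + 0.1 on a log axis of 6 members by site of the tumour, 1 symbol per line (triangles metastatic, circles primary) with medians as bars. LAMB1 and LAMC1 of the 4 intrahepatic lines lie above those of the 5 extrahepatic lines, and 4 metastatic gallbladder lines have 0.217 to 2.04 CPM of ITGB6.

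Metastatic and primary lines did not differ in any member past the threshold. Over 20 lines and 14843 genes, 0 of 29 members passed with edgeR, beside 0.0% of all genes, and 2 had an unadjusted p under 0.05 beside 7.73%. DESeq2 and limma-voom called 0. ITGA4 was at 0 to 1.28 CPM in 7 metastatic lines with a median of 0, against 0 to 235 CPM in 13 primary lines with a median of 1.07, a log2 difference of -6.15 ± 2.15 (adjusted p = 0.499) that was -1.74 without HuH28. ITGA2B averaged 0.72 ± 0.778 CPM in metastatic lines and 3.52 ± 5.73 CPM in primary lines (SD, n = 7 and 13), with -2.28 ± 1.02 (adjusted p = 0.604) and -1.55 without TGBC14TKB. LAMA2 had a difference of -1.83 (adjusted p = 0.647), and -0.45 without SNU-308. The median difference of the members was -0.08, against -0.02 over all genes.

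Whether the metastatic minus primary difference itself differed between gallbladder and bile duct lines was tested by an interaction over 17 lines and 16464 genes. Of 32 members 0 passed with edgeR, beside 0.0% of all genes, and 5 had an unadjusted p under 0.05 beside 5.1%. DESeq2 called 1 (ITGA10) and limma-voom 0. The interaction was -3.79 ± 1.15 for LAMA2, -8.02 ± 2.59 for ITGAX and 7.33 for ITGA10 (adjusted p = 0.952 for each), that of LAMA2 was -2.09 without SNU-308, and that of ITGAX was -4.61 without TGBC2TKB. LAMA2 was at 0.786 to 1.23 CPM in 4 metastatic and 2.31, 4.93 and 27.5 CPM in 3 primary gallbladder lines. All metastatic gallbladder lines lay below all primary ones for 5 of 33 members (ITGA4, ITGB6, LAMA2, LAMB3, LAMC3) and for 4.45% of the 14741 genes. For LAMC3 every gallbladder line except TGBC14TKB was at 0 to 0.329 CPM, near the level that a count of 0 allows, so its order there is uncertain. ITGA4 reached 10 CPM only in HuH28, an intrahepatic line. It was at most 2.53 CPM (SNU-308) elsewhere, so its gallbladder values are low as well. In bile duct lines LAMA2 was at 0.581, 0.82 and 1.11 CPM in 3 metastatic lines and 0.152 to 1.32 CPM in 7 primary lines. ITGB6 was at 0.217 to 2.04 CPM in the 4 metastatic and 3.37 to 43.3 CPM in the 3 primary gallbladder lines, and overlapped in bile duct lines.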

How the data were processed

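RNA was sequenced from 20 cell lines, 1 library each, after poly(A) selection with a stranded kit, per the labels' protocols. The authors deposited raw, unnormalized counts, 1 whole number per gene and library. Per the submitters' processing notes reads passed through Trimmomatic, TopHat2 2.0.8, Picard 1.69 and featureCounts, with builds hg19 and GRCh37. How strand was treated is not given in the sources used here. Overlapping genes may share reads.

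Symbols came from RefSeq for 23512 entries and GENCODE for 354. The 356 without one held 0.488% of counts and were kept. Whole-table tests ran in R 4.3.3 with edgeR 4.0.16, as a two-sided quasi-likelihood F test with TMM scaling, filterByExpr and robust dispersions, adjusted by Benjamini-Hochberg over all genes, with DESeq2 1.42.0 and limma 3.58.1 as alternatives. Each site was set against the unweighted mean of the other 3. Scripts were tested on simulated data. Correlations used log2 CPM with a prior count of 2 and 100000 permutations in numpy 2.4.6 (exact for 6 lines). Separate cultures per line are not stated, and p-values measure the spread between lines.

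The members, gene lists, pairs and score were chosen with earlier results of these data known. Any member could be named. The rule names those called in a comparison, or else the 3 of smallest p, up to 4 genes a list by smallest p, and the 5 genes of highest r with ITGB4, ITGB6 and ITGA5. A single member is counted in the totals, but its own results are not reported here. Other alternatives were RLE scaling, count filters, a non-robust fit, covariates, subsets of lines and each line left out. Promoters were matched by symbol for 26 of 38 members.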

Additional observations from a re-analysis of the deposited data

Results flagged for a closer look

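Of 129 member and group combinations of 4 to 7 lines, 18 held 1 line far from its group by Dixon's criterion at the 95% level, in 12 members. Over all 14741 genes that reached 10 CPM the same criterion marked 9.53% of combinations and 29.1% of genes, against 36.4% of the 33 members. Chance flags about 1 in 20 groups, and the groups share lines.

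Mz-ChA-2 was such a line for 5 members. ITGA3 was at 19.1 CPM in Mz-ChA-2, against 331 to 1901 CPM in the other gallbladder lines and 616 to 1541 CPM in the other metastatic lines. ITGA6 was at 1.71 CPM, against 228 to 1466 CPM in the other metastatic lines. LAMA3 was at 0.0 CPM, against 27.5 to 182 CPM in gallbladder and 34.3 to 1145 CPM in metastatic lines. ITGAL was at 94.5 CPM and LAMA1 at 7.0 CPM, both high, with the other metastatic lines at 0 CPM for ITGAL and at most 0.466 CPM for LAMA1.

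HuH28 stood apart among 4 intrahepatic lines for 3 members. ITGA11 was at 3162.0 CPM, against 0.0822 to 0.0853 CPM in the others. ITGB6 was at 0.171 CPM, against 45.1 to 92.7 CPM, and LAMA2 at 0.428 CPM, against 1.11 to 1.32 CPM.

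Among gallbladder lines ITGA7 was at 179.0 CPM in OCUG-1, ITGA11 at 6.08 CPM in TGBC2TKB and LAMC3 at 13.6 CPM in TGBC14TKB. LAMC3 also stood apart in SNU-1079 among intrahepatic lines (8.63 CPM) and in TFK-1 among extrahepatic lines (0.991 CPM). ITGA1 was at 0.392 CPM in SNU-245, against 7.46 to 21.0 CPM in the other extrahepatic lines. LAMB1 was at 318.0 CPM in Sk-ChA-1, against 601 to 958 CPM in the other metastatic lines.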

How the results depend on the processing

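With DESeq2 the counts of members called were 3 across sites, 3 for gallbladder, 2 for intrahepatic and 1 for extrahepatic lines, 3 for intrahepatic against extrahepatic and 1 for the interaction, against 0 in each with edgeR. Along the score 5 passed with repository and 3 with site as a covariate, the latter including ITGA11, whose slope rests on HuH28. Without HuH28 and Mz-ChA-2 (added after seeing the data) 2 passed, and 3 (without HuH28) to 9 passed when 1 line was left out. No share of all genes stands beside these counts or those of DESeq2. ITGA4 had slopes of -0.44 to 0.22 when 1 line was left out and 0.20 without both lines. The ampullary difference of LAMA4 was 2.24 with repository as a covariate. Of 14 pairs called, 0 passed in KCLB and 0 in RIKEN lines, 8 passed in primary lines (5 of the 14), 7 without both lines (6 of the 14), and 11 to 16 when 1 line was left out. With 6 lines no exact p can be below 0.00139, or 0.0847 after multiplying by 61 pairs, so a single pair could not pass there and these counts say nothing about stability. In KCLB lines r was -0.91 for ITGB4 and LAMA3, -0.70 for ITGB4 and LAMB3 and 0.38 for ITGB6 and FN1. The cause was not tested for any of these. Of 867 member values under alternatives 818 kept direction and side of the threshold. Many belong to members that were not called, for which staying on that side says little. Of 418 pair values 322 kept both, and the KCLB and RIKEN values are among the 418. These totals therefore do not measure how stable the calls are. With 1 library per line, line and library cannot be told apart. No paired analysis was possible because the replicate numbers were given in accession order and pair no lines.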

Other observations

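Of the 10 genes of highest r with ITGB4 over the 20 lines, 6 lie on chromosome 14, where 3.1% of the ranked genes lie, and the lowest line was Mz-ChA-2 for each of the 10. Without Mz-ChA-2, 0 of the 10 nearest genes lay on chromosome 14, and the list was led by FAM83H (0.87), ANO1 (0.82), ESAM (0.81), MISP (0.81) and FERMT1 (0.81). This was noticed after the values were seen and is given as a description.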
